A study of Homo sapiens with 12 samples.

Results

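The first hour of a BrU chase was examined in 2 human melanoma cell lines, by setting the libraries taken 1 h after the label was withdrawn against those taken at 0 h. In BRIC-seq, cells take up 5-bromouridine (BrU) into new RNA, the label is then withdrawn, and an antibody to BrU pulls down the RNA that was made before. Here the cells were labelled for 24 h, and 1 library was made per line at each of 0, 1, 3 and 6 h. One line is A375/211, A375 cells that overexpress the microRNA gene MIR211, and it is called the MIR211 line below. The other is A375, an established melanoma line that carries an activated BRAF gene. Both lines received the same BrU label, and no label gives the promoter of the MIR211 construct, whether the line is 1 clone, or whether the libraries came from separate cultures. The comparison set 2 libraries at 1 h against 2 at 0 h, of 12 in the series, with the cell line as the pairing factor, and the fit took in all 8 BRIC-seq libraries, so that those at 3 and 6 h share in its line term and its estimate of spread. All 60675 Ensembl gene rows of the count table were considered, and 13892 had enough counts in the 4 libraries at 0 and 1 h to be tested.

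After a day of labelling the pulled-down RNA holds molecules of every age, from long-lived messages to precursors made minutes earlier. RNA that is processed or degraded quickly loses its share first when the label is withdrawn, and stable messages gain share as the rest goes. Host transcripts of small RNAs are a textbook case of rapid turnover, because a microRNA hairpin or a snoRNA is cut or trimmed out of them and the remainder is degraded. Some of them are also removed by nonsense-mediated decay in the cytoplasm. All values below are shares of a library and not amounts per cell. In a bulk sample, fewer cells that hold a transcript and fewer copies per cell cannot be told apart.

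The 1 h libraries held 4534806 counts in the MIR211 line and 3949014 in A375, and the 0 h libraries held 2783520 and 2671651, so depth moved with the hour in both lines. The mitochondrial large rRNA MT-RNR2 took 10.4% of the counts at 1 h in the MIR211 line against 7.38% at 0 h, and 9.01% against 7.71% in A375. The MIR211 locus had 11 counts at 1 h and 9 at 0 h in the MIR211 line and none in either A375 library. Melanocyte markers were present in all 4 libraries, with 9 of 20 genes at 10 or more counts in each, although TYR, KIT and SLC45A2 were at 0 throughout. The keratinocyte genes KRT5 and KRT14, the leukocyte genes PTPRC and CD3E and the endothelial genes CDH5 and VWF were at 0 in all 4. The fibroblast markers summed to 43.3 CPM (CPM are read counts scaled to a common library size) at 1 h and 28.9 CPM at 0 h in the MIR211 line, most of it LUM, and to 3.86 and 5.55 CPM in A375. The keratinocyte list summed to between 1.75 and 3.89 CPM in every library. The leukocyte list summed to 18.3 and 18.0 CPM in the MIR211 line and 5.28 and 3.06 CPM in A375, all of it CD68 and LYZ. The endothelial list summed to 36.9 and 26.0 CPM in the MIR211 line, nearly all of it KDR, and to 1.02 and 3.89 CPM in A375. The part of depth and of these markers in the results was not tested.

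By edgeR's quasi-likelihood test, 0 of 13892 genes (0%) passed an adjusted p of 0.05 for 1 h against 0 h, and the smallest adjusted p was 0.0542. An unadjusted p under 0.05 was found for 2688 genes (19.3%), of which 1291 (9.29%) were lower at 1 h and 1397 (10.1%) higher. DESeq2 on the same counts called 690 genes (4.97%), 278 lower (2.00%) and 412 higher (2.97%). The edgeR fit had 3 residual degrees of freedom, and the smallest adjusted p lay close to the threshold. Where a gene is said to be called below, the call is that of DESeq2.

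Both lines moved together for many genes. The log2 change was below 0 in both lines for 4473 genes (32.2%) and above 0 in both for 5124 (36.9%). Both 1 h libraries lay under both 0 h libraries for 2768 genes (19.9%) and above both for 2587 (18.6%). Across the 13892 genes, the change in the MIR211 line and that in A375 had a Pearson correlation of 0.418 and a Spearman correlation of 0.458, and genes share their library and its scaling in this description. The median log2 change of all tested genes was 0.05.

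**Figure D1:**
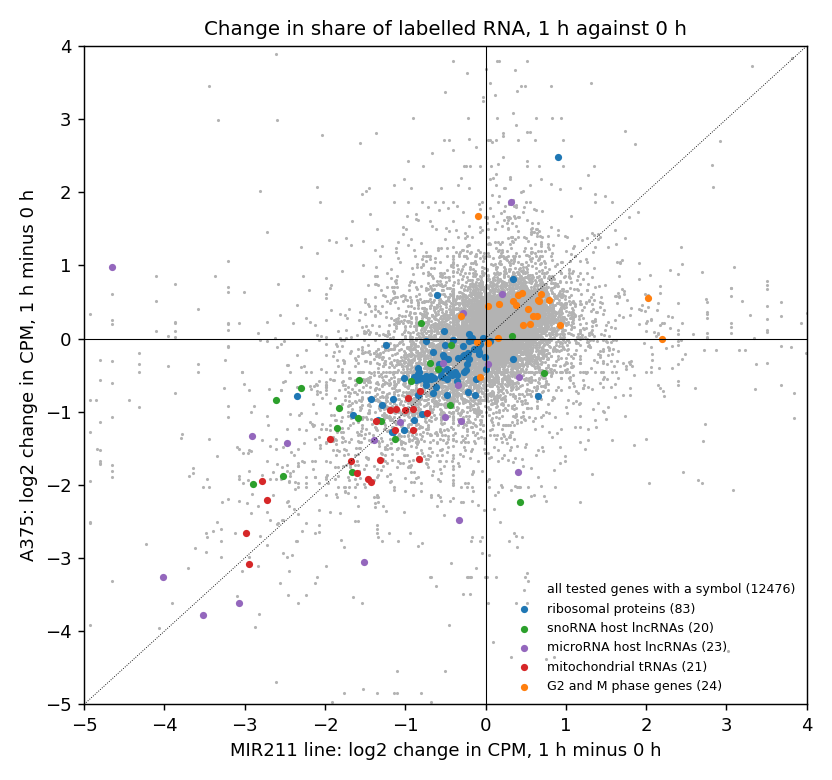
Log2 change in CPM, 1 h minus 0 h, in the MIR211 line (x axis) and in A375 (y axis), 1 point per tested gene with a symbol (12476 genes, 146 of them outside the axes), with 5 groups in colour and a dotted line of equal change. All 21 mitochondrial tRNAs and most host lncRNAs and ribosomal protein genes lie at the lower left, and most G2 and M phase genes in the upper right.

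Most host transcripts of microRNAs that were tested were lower at 1 h in both lines, with log2 changes down to -3.80 among those named. Their mature products are shown because the hosts turned out to carry some of the best known families, and RefSeq (GRCh38.p14) held all 15 mature miRNAs sought. The seed, bases 2 to 8 from the 5′ end, is in capitals, and each sequence runs 5′ to 3′. The host MIRLET7A1HG (chr9:94166258-94200905, plus strand, GENCODE 44, hg38) holds 3 let-7 miRNAs with 1 seed, within annotated exons.
hsa-let-7a-5p: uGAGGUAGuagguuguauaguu
hsa-let-7f-5p: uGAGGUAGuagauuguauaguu
hsa-let-7d-5p: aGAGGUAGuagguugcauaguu
MIR17HG (chr13:91347686-91397592, plus strand) holds the oncogenic miR-17-92 cluster, whose members fall into 4 seeds, again within annotated exons.
hsa-miR-17-5p: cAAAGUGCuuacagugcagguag
hsa-miR-20a-5p: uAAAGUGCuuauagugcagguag
hsa-miR-18a-5p: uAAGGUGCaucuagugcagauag
hsa-miR-19a-3p: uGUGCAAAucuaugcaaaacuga
hsa-miR-19b-3p: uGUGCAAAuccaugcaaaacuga
hsa-miR-92a-3p: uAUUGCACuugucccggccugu
MIR100HG (chr11:122028325-122556721, minus strand) also holds MIRLET7A2, whose place in the host was not determined. The miRNAs shown next for MIR181A1HG (chr1:198777861-198937471, minus strand) and for MIR100HG lie in introns.
hsa-miR-181a-5p: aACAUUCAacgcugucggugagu
hsa-miR-181b-5p: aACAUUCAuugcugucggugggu
hsa-miR-100-5p: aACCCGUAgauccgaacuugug
hsa-miR-125b-5p: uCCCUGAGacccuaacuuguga
The protein-coding gene VMP1 holds miR-21, one of the most abundant miRNAs of tumour cells.
hsa-miR-21-5p: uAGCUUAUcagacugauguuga
Mature miRNAs were not measured in these libraries, so the values below are those of the hosts alone.

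MIRLET7A1HG had 0.972 CPM at 1 h against 12.1 CPM at 0 h in the MIR211 line, and 1.02 against 15.3 CPM in A375. Both 1 h libraries were far below both 0 h libraries, with a log2 change of -3.74 (SE 0.37, edgeR adjusted p = 0.0542). At 3 h it stood at 0.701 CPM in the MIR211 line and 0.699 CPM in A375, so that nearly all of its loss over the chase fell within the first hour. MIR17HG had 0.389 CPM at 1 h against 7.73 CPM at 0 h in the MIR211 line, and 0.609 against 6.67 CPM in A375 (log2 -3.80, SE 0.58, adjusted p = 0.0808). These are only 2 and 3 counts at 1 h, and the 95% counting interval of the log2 ratio ran from -7.42 to -2.34 in the MIR211 line and from -5.83 to -1.73 in A375. The groups did not overlap.

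MIR181A1HG had 7.19 CPM at 1 h against 40.4 CPM at 0 h in the MIR211 line, and 9.75 against 26.4 CPM in A375 (log2 -1.96, SE 0.30). MIR100HG, the most abundant of the hosts named, had 69.6 CPM at 1 h against 146 CPM at 0 h in the MIR211 line, and 29.7 against 65.3 CPM in A375 (log2 -1.10, SE 0.20). Its levels overlapped between the hours only because the lines differ, since each line was lower at 1 h, and its locus overlaps other genes on both strands. DESeq2 called all 4 of these hosts. MIR222HG (log2 -2.30, SE 0.43) and MIR23AHG (log2 -2.34, SE 0.53), chosen after their values were seen, were called by DESeq2 as well.

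The microRNA host list holds 72 gene rows, of which 23 were tested. DESeq2 called 7 of the 23 lower and 0 higher, against 2.00% and 2.97% of all genes. At an unadjusted edgeR p under 0.05, 11 were lower and 0 higher, against 9.29% and 10.1% of all genes. The change was below 0 in both lines for 16 and above 0 in both for 2 (32.2% and 36.9% of all genes), with a median of -1.10. A wider class of 53 lncRNA genes that hold an annotated miRNA, added after values were seen, had a median of -0.68, and the other 1444 lncRNA genes had -0.36. Of all 1497 lncRNA genes tested, DESeq2 called 62 lower and 9 higher, against 2.00% and 2.97% of all genes.

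VMP1, which encodes a vacuole membrane protein needed for autophagosome formation (ENSG00000062716, chr17:59707192-59842255, plus strand), had the smallest p of all genes named. It stood at 225 CPM at 1 h against 819 CPM at 0 h in the MIR211 line, and at 185 against 505 CPM in A375. Both 1 h libraries were well below both 0 h libraries, and the log2 change was -1.66 (SE 0.12, edgeR adjusted p = 0.0542, between 5.50e-27 and 0.398 over the 17 alternative settings). The share then recovered, to 391 and 642 CPM at 3 and 6 h in the MIR211 line and to 287 and 475 CPM in A375. PTRH2, a mitochondrial peptidyl-tRNA hydrolase gene that overlaps VMP1 on the opposite strand, was also lower, with 25.7 CPM at 1 h against 77.5 CPM at 0 h in the MIR211 line and 26.0 against 68.9 CPM in A375. It did not recover, with 10.4 CPM in the MIR211 line and 11.2 CPM in A375 at 6 h. Whether the authors' counting used strand is not given in the sources used here, so reads from this pair cannot be told apart with certainty.

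Lower at 1 h beside these were 8 more genes that the rule named. ATP5F1E, the epsilon subunit of the mitochondrial ATP synthase, had 7.77 CPM at 1 h against 38.4 CPM at 0 h in the MIR211 line and 17.1 against 106 CPM in A375 (log2 -2.48, SE 0.21). NIPAL3, a membrane protein gene of a magnesium transporter family, had 20.6 against 81.2 CPM in the MIR211 line and 41.0 against 150 CPM in A375 (log2 -1.91, SE 0.21). In both lines NIPAL3 stood above its 0 h level by 3 h, at 134 CPM in the MIR211 line and 209 CPM in A375. HAPSTR1, a stress response regulator, was also lower at 1 h (log2 -1.21, SE 0.15). It had 72.1 CPM at 1 h against 173 CPM at 0 h in the MIR211 line and 61.8 against 137 CPM in A375. By 3 h HAPSTR1 had risen in part, to 101 and 110 CPM in the MIR211 line and A375. Nearly all of its share was then lost by 6 h (5.81 and 4.99 CPM).

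TRA2B, a splicing regulator related to SR proteins, had 50.7 CPM at 1 h against 160 CPM at 0 h in the MIR211 line and 77.4 against 172 CPM in A375 (log2 -1.41, SE 0.16). KHDC4, a splicing-associated KH-domain protein gene, had a log2 change of -1.49 (SE 0.18), and EPM2AIP1, whose product binds the glycogen phosphatase laforin, one of -1.69 (SE 0.21). KHDC4 and EPM2AIP1 stood lower still at 3 and 6 h. The ribosomal protein genes RPL37 (log2 -1.13, SE 0.13) and RPS2 (log2 -1.23, SE 0.16) complete the 10. All 10 had both 1 h libraries under both 0 h libraries, edgeR adjusted p between 0.0542 and 0.0644, and a DESeq2 call. As they were chosen by small p in these same libraries, this is no separate support.

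**Figure D2:**
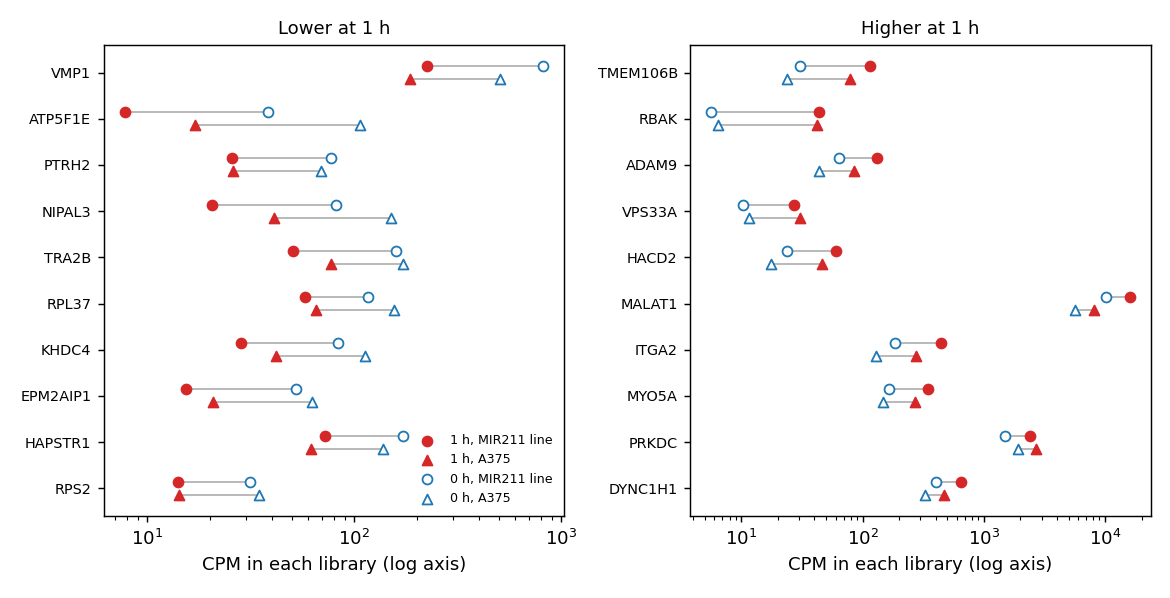
CPM (log axis) of the 10 lower and 10 higher genes named by rule in each of 4 libraries, with 1 h in filled red and 0 h in open blue, circles for the MIR211 line and triangles for A375. VMP1 stands at 225 and 185 CPM at 1 h against 819 and 505 CPM at 0 h, and TMEM106B at 115 and 79.2 CPM against 30.7 and 23.9 CPM.

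The mitochondrial tRNAs were lower at 1 h as a class. Mitochondrial DNA is transcribed into long precursors in which tRNAs sit between the mRNAs and rRNAs, and they are cut out by dedicated nucleases. The files count reads per gene and do not tell a free tRNA from a precursor that spans it. The 2 with the smallest p and a lysine tRNA are shown here as the reference has them (hg38, chrM), with the gene before the colon.
MT-TF, phenylalanine (chrM:577-647, plus strand): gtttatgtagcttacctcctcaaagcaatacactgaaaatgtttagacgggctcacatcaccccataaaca
MT-TD, aspartate (chrM:7518-7585, plus strand): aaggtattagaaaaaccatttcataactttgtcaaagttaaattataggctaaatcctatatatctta
MT-TK, lysine (chrM:8295-8364, plus strand): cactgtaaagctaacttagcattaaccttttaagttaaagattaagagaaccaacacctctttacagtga

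MT-TF had 3.69 CPM at 1 h against 29.1 CPM at 0 h in the MIR211 line, and 2.64 against 23.1 CPM in A375 (log2 -3.04, SE 0.29, edgeR adjusted p = 0.0542). MT-TD had 2.14 against 17.5 CPM in the MIR211 line and 3.25 against 21.1 CPM in A375 (log2 -2.84, SE 0.32, adjusted p = 0.0552). MT-TK had 8.74 against 28.1 CPM in the MIR211 line and 8.94 against 28.6 CPM in A375 (log2 -1.68, SE 0.28). Each of the 3 was several times lower at 1 h in both lines, with no overlap between the hours. The leucine tRNA MT-TL2 was more abundant and less changed, with 44.5 against 83.5 CPM in the MIR211 line and 37.0 against 72.2 CPM in A375 (log2 -0.94, SE 0.16).

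Of 22 annotated mitochondrial tRNAs, 21 were tested. All 21 were lower at an unadjusted edgeR p under 0.05 (9.29% of all genes) and lower in both lines (32.2% of all genes). DESeq2 called 14 lower and 0 higher against 2.00% and 2.97% of all genes. In 19, both 1 h libraries lay under both 0 h libraries, against 19.9% of all genes. Their log2 changes ran from -3.04 to -0.76, with a median of -1.25 and edgeR adjusted p between 0.0542 and 0.212. The tRNAs are short and thinly counted, between 0.777 and 73.5 CPM at 1 h and between 2.83 and 130 CPM at 0 h.

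The long mitochondrial RNAs differed among themselves. MT-RNR2, the large rRNA, was higher at 1 h, with 91747 CPM against 52959 CPM at 0 h in the MIR211 line and 72281 against 57220 CPM in A375 (log2 0.56, SE 0.12), and DESeq2 called it. The small rRNA MT-RNR1 changed less (log2 0.16, SE 0.15) and was not called. Of the 13 mitochondrial mRNAs, DESeq2 called 2 lower and 0 higher (2.00% and 2.97% of all genes), and 4 were lower and 0 higher at an unadjusted edgeR p under 0.05 (9.29% and 10.1% of all genes), with a list median of -0.07. The 2 called were the complex I subunits MT-ND1, with 2075 against 3046 CPM in the MIR211 line and 3141 against 4848 CPM in A375 (log2 -0.59, SE 0.10), and MT-ND3 (log2 -0.68, SE 0.19). The others of the 4 were also complex I subunits, MT-ND5 (log2 -0.37, SE 0.12) and MT-ND2 (log2 -0.25, SE 0.09), and DESeq2 did not call them.

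**Figure D3:**
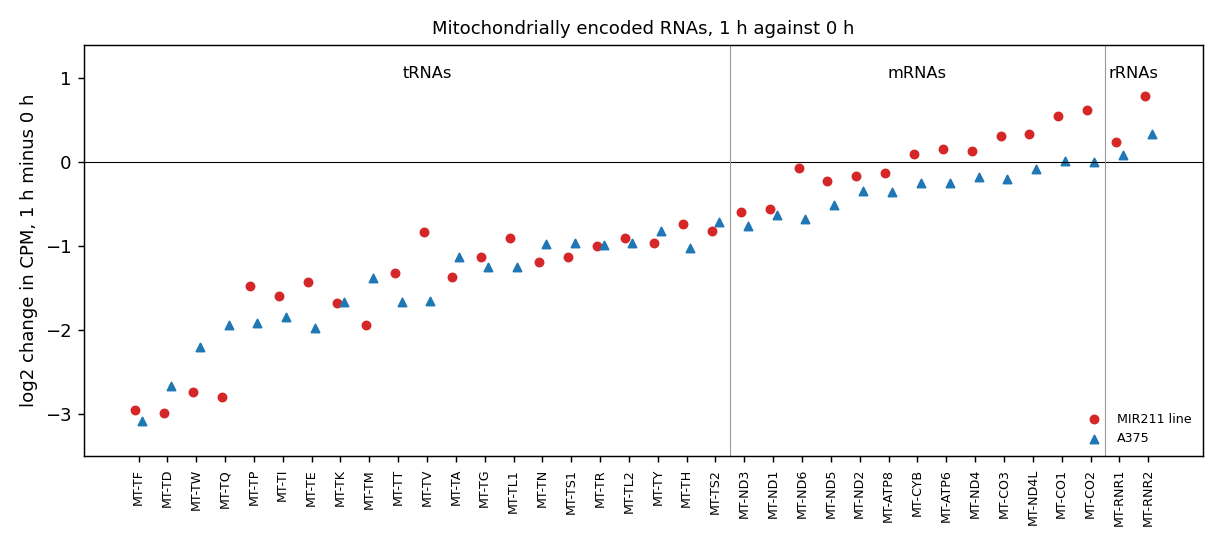
Log2 change in CPM, 1 h minus 0 h, of each tested mitochondrially encoded RNA in the MIR211 line (circles) and A375 (triangles), grouped as tRNAs, mRNAs and rRNAs. Every tRNA point lies below 0, while MT-RNR2 lies above 0 in both lines.

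Host genes of snoRNAs, most of them lncRNA genes, were a further group with lower shares at 1 h. These genes carry box C/D or H/ACA snoRNAs, guides of rRNA modification, in their introns, and their spliced remainder is a substrate of nonsense-mediated decay. GAS5 had 33.6 CPM at 1 h against 101 CPM at 0 h in the MIR211 line, and 51.0 against 109 CPM in A375 (log2 -1.32, SE 0.23). ZFAS1 had 9.72 against 35.3 CPM in the MIR211 line and 7.92 against 18.6 CPM in A375 (log2 -1.55, SE 0.25). Both hosts were lower in each line, with no overlap of the hours. SNHG4 (log2 -1.76, SE 0.26) and EPB41L4A-AS1 (log2 -1.21, SE 0.25) were named by the rule as well, though SNHG4 overlaps the coding gene MATR3 on the same strand and its reads are uncertain.

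Of 25 snoRNA host rows, 20 were tested. Of the 20, TAF1D (log2 -0.75, SE 0.16) is a protein-coding gene and not a lncRNA, and it is among those that DESeq2 called. DESeq2 called 6 lower and 0 higher against 2.00% and 2.97% of all genes. At an unadjusted edgeR p under 0.05, 12 were lower and 0 higher, against 9.29% and 10.1% of all genes. In 14, both 1 h libraries lay under both 0 h libraries, against 19.9% of all genes. The change was below 0 in both lines for 16 and above 0 in both for 1 (32.2% and 36.9% of all genes), with a median of -1.17. SNHG3, chosen after its values were seen, had 6.41 against 48.2 CPM in the MIR211 line and 10.2 against 40.6 CPM in A375 (log2 -2.38, SE 0.55). It overlaps RCC1 on the same strand, so its reads are uncertain as well. At 6 h the median member was back to -0.17 relative to 0 h in the MIR211 line and to -0.56 in A375, and 15 of the 20 were higher at 6 h than at 3 h in both lines. Of 10 tested genes annotated as snoRNAs, 7 were below 0 in both lines and DESeq2 called 1 lower and 0 higher, with a median of -1.59, and of 31 annotated as miscellaneous RNA, 21 were below 0 in both lines and it called 2 lower and 0 higher, with a median of -0.56. None of 24 small structural RNA rows on the list of such genes had enough counts to be tested.

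Ribosomal protein mRNAs, which encode the subunits of the cytosolic ribosome, were lower at 1 h by smaller amounts. RPL37 had 57.5 CPM at 1 h against 116 CPM at 0 h in the MIR211 line, and 65.6 against 156 CPM in A375. RPL32 had 13.2 against 41.7 CPM in the MIR211 line and 21.9 against 45.3 CPM in A375 (log2 -1.33, SE 0.21), and RPL37A was similar in size (log2 -1.22, SE 0.18). In all 3 the hours did not overlap. DESeq2 called 22 of the 83 tested members lower and 0 higher against 2.00% and 2.97% of all genes, and 42 were lower and 2 higher at an unadjusted edgeR p under 0.05 against 9.29% and 10.1%. The change was below 0 in both lines for 73 and above 0 in both for 2 (32.2% and 36.9% of all genes), with a median of -0.44. Near-identical processed pseudogenes exist for many of these genes, so their reads may be split.

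This direction did not last. The median ribosomal protein gene was at -0.49, 0.37 and 1.81 on the log2 scale relative to 0 h after 1, 3 and 6 h in the MIR211 line, and at -0.46, 0.38 and 1.87 in A375. At 6 h, 82 of the 83 were above their 3 h value in both lines, against 5351 of all 13892 genes. A list of 37 nuclear-encoded subunits of oxidative phosphorylation took a similar course with a smaller early change. The list is not complete, and ATP5F1E, described above, is not on it. Of these 37, DESeq2 called 4 lower and 0 higher against 2.00% and 2.97% of all genes, with a median of -0.19. All 37 were higher at 6 h than at 3 h in both lines. Among those listed, the members with the smallest p were UQCRB of complex III (10.3 against 21.1 CPM in the MIR211 line, 5.69 against 18.6 CPM in A375, log2 -1.33, SE 0.25), NDUFB8 of complex I (log2 -1.14, SE 0.24) and COX7C of complex IV (log2 -0.76, SE 0.16).

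**Figure D4:**
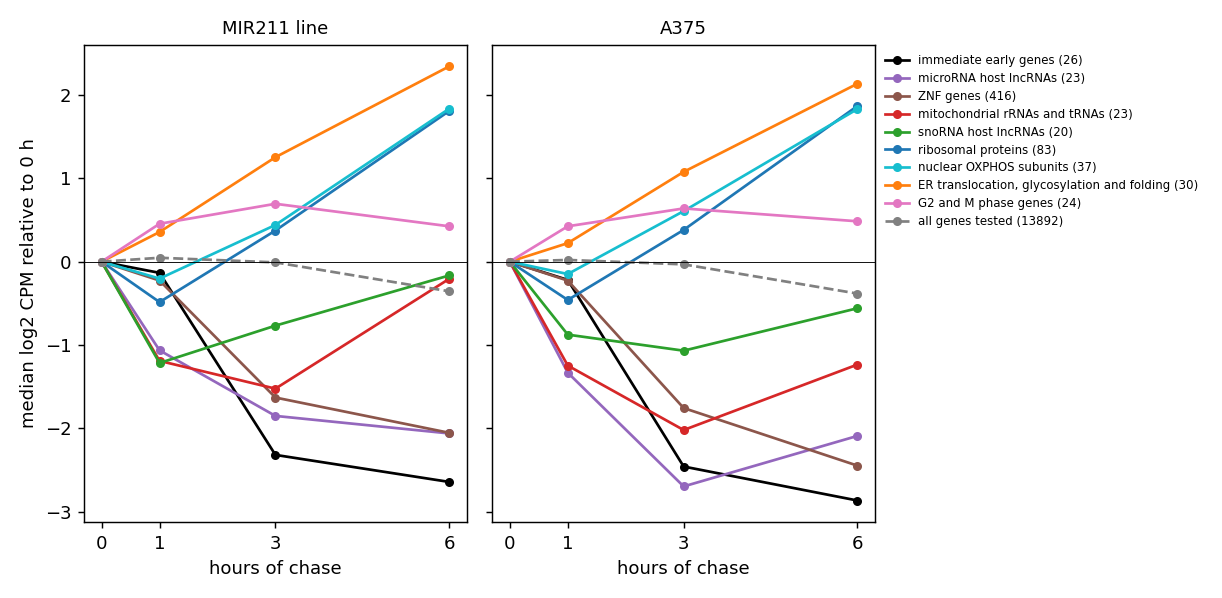
Median log2 CPM of 9 gene lists and of all tested genes relative to 0 h, by hours of chase, in the MIR211 line (left) and A375 (right), with the number of members tested in brackets. Ribosomal protein genes dip to -0.49 and -0.46 at 1 h and stand at 1.81 and 1.87 at 6 h, whereas immediate early genes stand at -0.13 and -0.22 at 1 h and at -2.64 and -2.87 at 6 h.

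Immediate early genes, whose messages are known for rapid decay through AU-rich elements, had an early median of -0.18, closer to 0 than their medians at 3 h. KLF6, a zinc finger transcription factor, had 15.5 CPM at 1 h against 38.9 CPM at 0 h in the MIR211 line and 13.2 against 24.2 CPM in A375 (log2 -1.10, SE 0.22), and it was the 1 member of 26 tested that DESeq2 called, against 2.00% of all genes called lower. At an unadjusted edgeR p under 0.05, 4 of the 26 were lower and 0 higher (9.29% and 10.1% of all genes), the change was below 0 in both lines for 13 and above 0 in both for 2 (32.2% and 36.9%), and 7 had both 1 h libraries under both 0 h libraries and 0 above (19.9% and 18.6%). IER5, a regulator of the heat shock response, had 7.19 against 18.0 CPM in the MIR211 line and 15.4 against 26.9 CPM in A375 (log2 -1.04, SE 0.24). The stress-induced factor ATF3 (log2 -1.31, SE 0.40), IER2 (log2 -1.06, SE 0.52) and MYC (log2 -0.60, SE 0.25) were below 0 without a call. FOS had 4 counts at 1 h and 11 at 0 h in the MIR211 line and 11 and 6 in A375, and JUN had 8 and 7 in the MIR211 line and 2 and 0 in A375, too few to be tested.

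EGR1 differed in direction between the lines, with 12.2 CPM at 1 h against 7.99 CPM at 0 h in the MIR211 line and 26.0 against 32.8 CPM in A375, and its log2 change of 0.00 (SE 0.45) turned negative under 9 of 17 alternative settings. The median immediate early gene was at -0.13 at 1 h in the MIR211 line and at -0.22 in A375, and at -2.32 and -2.46 at 3 h. The ZNF genes, a large family of zinc finger factors, also had lower medians at 3 h than at 1 h. Of 416 tested, DESeq2 called 7 lower and 2 higher, no larger a share than the 2.00% and 2.97% of all genes. The change was below 0 in both lines for 219 and above 0 in both for 70, against 32.2% and 36.9% of all genes, and the median was -0.24 at 1 h. By 3 h the median stood at -1.63 in the MIR211 line and -1.76 in A375. The ZNF genes with the smallest p were ZNF607 (log2 -1.76, SE 0.32), ZNF506 (log2 -1.02, SE 0.20), ZNF226 (log2 -1.53, SE 0.31) and ZNF493 (log2 -1.65, SE 0.34).

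Among regulators of mRNA decay and cell survival the values were mixed. CNOT1, the scaffold of the CCR4-NOT deadenylase, was higher, with 892 CPM at 1 h against 548 CPM at 0 h in the MIR211 line and 934 against 651 CPM in A375 (log2 0.61, SE 0.09), while the subunit CNOT2 was lower, with 54.6 against 93.0 CPM and 49.8 against 88.9 CPM (log2 -0.80, SE 0.19). DESeq2 called both, and no other of the 16 members of that list, against 2.97% of all genes called higher and 2.00% lower. The antiproliferative genes BTG2 (log2 -1.17, SE 0.55) and BTG1 (log2 -0.37, SE 0.82) were not called. BIRC5, which encodes survivin, had 20.8 against 6.70 CPM in the MIR211 line and 15.8 against 5.55 CPM in A375 (log2 1.58, SE 0.36), and DESeq2 called it higher, as it did BIRC6 (log2 0.35, SE 0.10). These were the 2 called of 14 tested BCL2 family and IAP genes, against 2.97% of all genes called higher and 2.00% lower. BCL2L11 of the same list was lower in both lines (log2 -1.23, SE 0.30) and was not called. The proteasome lid gene PSMD6 was lower, with 37.9 against 85.0 CPM in the MIR211 line and 35.5 against 85.0 CPM in A375 (log2 -1.21, SE 0.16), and the base subunit gene PSMD1 was called higher (log2 0.39, SE 0.10). They were the 2 called of 31 proteasome genes, against 2.00% of all genes called lower and 2.97% higher. Of the 31, 12 were below 0 in both lines and 10 above, near the 32.2% and 36.9% of all genes.

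Higher at 1 h with the smallest p was TMEM106B, a lysosomal membrane protein gene, with 115 CPM at 1 h against 30.7 CPM at 0 h in the MIR211 line and 79.2 against 23.9 CPM in A375 (log2 1.82, SE 0.15, edgeR adjusted p = 0.0542). RBAK, a zinc finger repressor that binds the retinoblastoma protein, had 43.9 against 5.67 CPM in the MIR211 line and 42.5 against 6.39 CPM in A375 (log2 2.84, SE 0.31). Both 1 h libraries were above both 0 h libraries for each of these. A readthrough gene overlaps RBAK on the same strand, so reads may move between the pair. At 3 h RBAK stood at 23.0 CPM in the MIR211 line and 23.4 CPM in A375, below its 1 h level.

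The remaining higher genes were of several kinds. ADAM9, a membrane metalloprotease, had 132 against 64.4 CPM in the MIR211 line and 85.5 against 44.2 CPM in A375 (log2 1.00, SE 0.11). ITGA2, the collagen-binding integrin subunit, had 442 against 185 CPM in the MIR211 line and 274 against 129 CPM in A375 (log2 1.17, SE 0.16), and by 6 h it was back at 193 CPM in the MIR211 line and 125 CPM in A375. MYO5A, the motor that carries melanosomes (log2 0.99, SE 0.13), DYNC1H1, the heavy chain of cytoplasmic dynein (log2 0.60, SE 0.09), and PRKDC, the DNA-dependent protein kinase (log2 0.60, SE 0.09), all have very long messages. VPS33A, a subunit of vesicle tethering complexes (log2 1.39, SE 0.17), and HACD2, an enzyme of very long-chain fatty acid synthesis (log2 1.39, SE 0.17), were the others that encode proteins.

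MALAT1, an abundant nuclear lncRNA, had 15938 CPM at 1 h against 10113 CPM at 0 h in the MIR211 line and 8096 against 5620 CPM in A375 (log2 0.59, SE 0.07). It was higher in each line, but the hours overlapped because its level differs between the lines, and it was the 1 of these 10 for which they did. NEAT1, the scaffold of paraspeckles, had 2615 against 2478 CPM in the MIR211 line and 1667 against 1580 CPM in A375 (log2 0.08, SE 0.16), which was below 0 with total-count scaling (-0.14) and with glycolytic mRNAs held constant (-0.15). Of the 10 higher genes, 9 were still above their 0 h level at 6 h in both lines.

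Cell division genes had the highest median of any list. KIF11, the kinesin of the bipolar spindle, had 223 CPM at 1 h against 140 CPM at 0 h in the MIR211 line and 186 against 131 CPM in A375 (log2 0.59, SE 0.12). The mitotic kinase AURKA had 102 against 64.9 CPM in the MIR211 line and 103 against 70.8 CPM in A375 (log2 0.60, SE 0.13), and the kinetochore protein gene CENPF 1273 against 790 CPM and 1226 against 801 CPM (log2 0.65, SE 0.16). In these 3 genes both 1 h libraries exceeded both 0 h libraries. The proliferation antigen MKI67, chosen after its values were seen, had 664 against 163 CPM in the MIR211 line and 687 against 469 CPM in A375 (log2 1.20, SE 0.36). Of 24 G2 and M phase genes, DESeq2 called 7 higher and 0 lower against 2.97% and 2.00% of all genes, and the median was 0.46. At an unadjusted edgeR p under 0.05, 9 were higher and 0 lower, against 10.1% and 9.29% of all genes. Between 3 and 6 h, 14 of the 24 were lower in both lines and 3 higher in both, against 40.2% and 38.5% of all genes. Relative to 0 h, the median was 0.69 at 3 h and 0.42 at 6 h in the MIR211 line, and 0.64 and 0.48 in A375.

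Several genes of the secretory pathway and of sterol synthesis were also called higher. HSP90B1, the HSP90 chaperone of the endoplasmic reticulum (ER), had 1654 CPM at 1 h against 1116 CPM at 0 h in the MIR211 line and 662 against 440 CPM in A375 (log2 0.58, SE 0.10). The translocon gene TRAM1 (log2 0.52, SE 0.11) and the oligosaccharyltransferase subunit RPN2 (log2 0.53, SE 0.11) were close to it in size. DESeq2 called 7 of 30 ER genes higher and 0 lower against 2.97% and 2.00% of all genes, with a median of 0.25. Both 1 h libraries were above both 0 h libraries for 13 of the 30 and under both for 5 (18.6% and 19.9% of all genes). Those 5 were the translocon genes SEC61A1, SEC61B and SEC61G and the translocon-associated SSR2 and SSR4, none of them called, with log2 changes between -0.68 and -0.41. The desaturase SCD (log2 0.52, SE 0.10) and the sterol sensor INSIG1 (log2 0.64, SE 0.15) were among 5 of 20 sterol and fatty acid synthesis genes that DESeq2 called higher, against 2.97% of all genes, with 0 lower and a median of 0.27. At 6 h HSP90B1 stood at 9000 CPM in the MIR211 line and at 3146 CPM in A375.

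The size of these positive medians depended on the scaling, which moves all genes of a library alike. With total counts in place of TMM scaling, the median of all genes shifted by -0.21, and with glycolytic mRNAs held constant by -0.22. The G2 and M phase median then stood at 0.26 and 0.24, the ER median at 0.04 and 0.03 and the sterol median at 0.06 and 0.05. Matrix genes had a median of 0.30 (0.10 and 0.08 under those scalings) with 3 of 19 called higher by DESeq2 against 2.97% of all genes, among them the laminin chain LAMC1 (log2 0.57, SE 0.13), the protease inhibitor TIMP3 (log2 0.45, SE 0.08) and SPARC (log2 0.34, SE 0.08). The medians of lysosomal genes (0.19) and translation factors (0.17) were smaller than that shift and so were below 0 under both scalings.

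**Figure D5:**
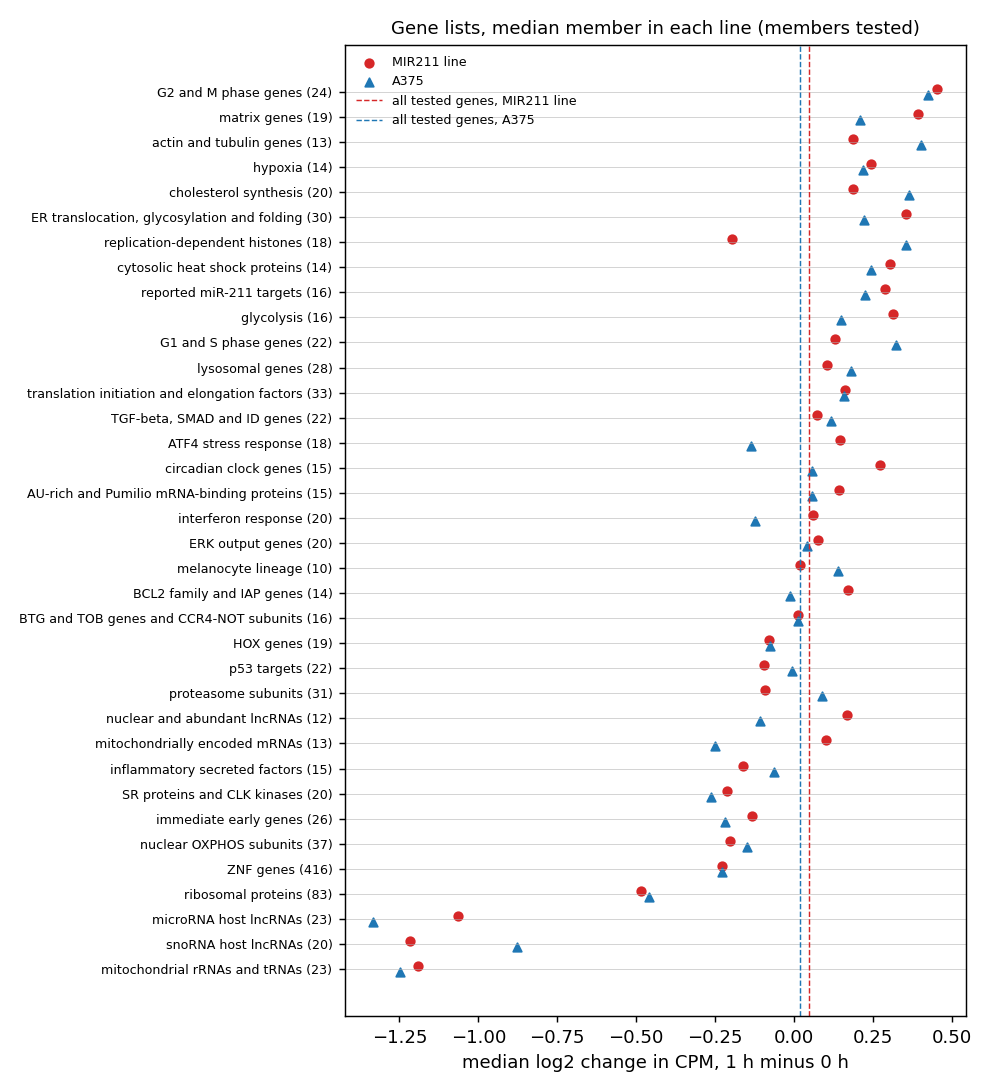
Median log2 change in CPM, 1 h minus 0 h, of each gene list with at least 10 tested members (number in brackets), in the MIR211 line (circles) and A375 (triangles), with dashed lines for the median of all tested genes. The mitochondrial rRNA and tRNA list, both host lists and the ribosomal proteins lie far to the left, and the G2 and M phase genes lie farthest to the right.

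Reported targets of miR-211, taken from the literature on melanoma lines, had few calls. Of 16 tested, DESeq2 called 1 higher and 0 lower, against 2.97% and 2.00% of all genes. It was the lysosomal sorting receptor IGF2R, which was higher, with 150 CPM at 1 h against 98.7 CPM at 0 h in the MIR211 line and 133 against 92.2 CPM in A375 (log2 0.57, SE 0.10). DUSP3 had 34.6 against 28.1 CPM in the MIR211 line and 26.2 against 21.7 CPM in A375 (log2 0.29, SE 0.43). At an unadjusted edgeR p under 0.05, 2 were higher and 0 lower (10.1% and 9.29% of all genes), and the change was above 0 in both lines for 9 and below 0 in both for 1 (36.9% and 32.2%). The list's median was 0.22, or 0.02 and 0.00 under the scalings above, and stood at 0.29 in the MIR211 line and 0.23 in A375.

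Gene type and message length went with the direction of the early change. Of the 278 genes that DESeq2 called lower, 62 (22.3%) were lncRNA genes, and of the 412 called higher, 9 (2.18%) were, against 10.8% of all tested genes. The merged exons had a median length of 4366 bases in the genes called lower and 9158 bases in those called higher, against 5048 bases over all tested genes that are annotated. Among protein-coding genes the median log2 change was -0.05 for the 78 with up to 1000 bases of merged exon and -0.10 for the 509 above 1000 and up to 2000. It was 0.04 for the 2259 above 2000 and up to 4000, 0.11 for the 4554 above 4000 and up to 8000 and 0.18 for the 3250 with more. The shortest group was thus not the lowest.

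The later change was taken from the libraries at 3 and 6 h, which also entered the fit behind the early calls through its line term and spread. Between 3 and 6 h, 5589 of all tested genes (40.2%) were lower at 6 h in both lines and 5351 (38.5%) higher in both. Of the 278 genes called lower at 1 h, 59 (21.2%) were lower and 152 (54.7%) higher, and of the 412 called higher at 1 h, 122 (29.6%) were lower and 262 (63.6%) higher. Across all tested genes the Spearman correlation of the early with the late change was -0.07 in the MIR211 line and -0.03 in A375.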

How the data were processed

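BRIC-seq RNA was measured in 8 libraries, 1 per line at 0, 1, 3 and 6 h. The authors deposited whole-number read counts per Ensembl gene, not normalized. Per the submitters' processing notes, HISAT2 2.1.0 and StringTie were used. The design text says that the authors tested with DESeq2. Those notes give the build as hg19 and the design text as hg38. For annotation, strand setting and multi-mapping reads nothing was given in the sources used. Per the labels, the kit was a stranded one for total RNA. Symbols (41209 of 60675 rows, 67.9%), gene types, exon lengths and coordinates are those of GENCODE 44, and no coordinate comes from the deposited table. Of the counts, 1 row that names no gene was left out (at most 0.00122% of a library).

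edgeR 4.0.16 (R 4.3.3) was fitted by quasi-likelihood to all 8 libraries with line and hour as factors (3 residual degrees of freedom), TMM scaling, and filterByExpr on the 4 libraries at 0 and 1 h (minimum count 10, minimum total 15). The 1 h coefficient was tested with Benjamini-Hochberg adjustment over 13892 genes. CPM values use TMM-scaled library sizes. Log2 changes in one line add 0.5 to each count. A standard error here is the absolute log2 change over the square root of F. DESeq2 1.42.0, other scalings and filters and the leaving out of libraries were alternatives. The fitting was tested on simulated data. Intervals of 95% cover counting error only. The pairing by cell line comes from the labels, and since no label names separate cultures, p-values cover only the spread among these libraries, which may be technical.

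The rule named the 10 genes of each sign with the smallest p and a mean log2 CPM of 4 or more, and up to 4 members of each of 41 lists. As no gene passed the adjusted p, agreement between the lines was not a condition. The members, lists and rule were chosen with earlier results of these data known. Some genes that the rule names are not reported here. The RNA-seq libraries were not analysed here.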

Additional observations from a re-analysis of the deposited data

Results flagged for a closer look

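ACTB, the cytoplasmic actin gene, moved in opposite directions in the lines. It had 263 CPM at 1 h against 578 CPM at 0 h in the MIR211 line (log2 -1.14, 95% counting interval -1.24 to -1.04) and 532 against 124 CPM in A375 (log2 2.09, 1.95 to 2.24). With 1 library per line and hour this difference was not tested. At 3 and 6 h it stood at 528 and 3033 CPM in the MIR211 line and at 1768 and 4688 CPM in A375.

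The row of the count table that names no gene held 10 counts at 1 h and 3 at 0 h in the MIR211 line, and 9 and 3 in A375. On the TMM scale these are log2 changes of 1.33 (95% counting interval -0.63 to 3.83) and 1.13 (-0.87 to 3.66), so the counts are too few to separate the hours. The row lies outside the genes compared, and what it counts is not stated in the sources used here.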

How the results depend on the processing

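The count of 0 genes past an adjusted p of 0.05 was the same on the 4 libraries at 0 and 1 h alone, with DESeq2's size factors in edgeR, without mitochondrially encoded genes and with no count filter. It rose to 24 with total counts (22 lower), to 38 with glycolytic mRNAs held constant (35 lower), to 21 with a minimum mean of 5 CPM (17 lower) and to 690 with DESeq2. Without 1 library it lay between 0 and 5, with the 5 called when the A375 library at 0 h was left out. With no replicate block, that is without the line that pairs the samples, it was 0, and 1065 genes had an unadjusted p under 0.05. Scaling to the row that names no gene, an alternative chosen after seeing the data, gave 10315 (10304 lower) and shifted the median of all genes by -1.24, with very few counts behind it. Of genes with an unadjusted p under 0.05, 48.0% were lower, 59.3% on 4 libraries, 68.4% without the line, 31.4% with no filter, 85.3% with total counts and 87.4% with glycolytic mRNAs held constant.

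Of 92 genes named and tested, 86 kept their sign under the alternatives run for single genes (at most 17 each), and scaling to the row that names no gene was not run for them. EGR1 (main value 0.00) was at -0.090 with no replicate block, -0.011 with DESeq2, -0.012 with its size factors in edgeR, -0.18 with total counts, -0.19 with glycolytic mRNAs held constant, -0.00025 without mitochondrial genes and -0.056 with the CPM minimum. ACTB (main value -0.02) was at 0.43 on 4 libraries, 0.18 with no replicate block and 0.13 with no filter. NEAT1 (0.08) was at -0.14 with total counts and -0.15 with glycolytic mRNAs held constant. Without 1 library, EGR1 lay between -0.62 and 1.04, ACTB between -1.18 and 2.18, NEAT1 between -0.039 and 0.24, BTG1 between -1.39 and 0.57, DUSP3 between -0.20 and 0.80 and GDF15 between -3.62 and 0.66, the last above 0 only without the A375 library at 1 h.
The cause of these differences was not tested. Depth limits MIR17HG, which had 2 and 3 counts at 1 h.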

Other observations

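A few genes outside the groups above were called higher at 1 h by DESeq2. SLC7A5, a large neutral amino acid transporter, had 144 CPM at 1 h against 80.1 CPM at 0 h in the MIR211 line and 31.7 against 19.4 CPM in A375 (log2 0.78, SE 0.13), and PSAT1 of serine synthesis was higher as well (log2 0.65, SE 0.15). They were 2 of 18 tested genes of the ATF4 stress response, with 0 called lower, against 2.97% and 2.00% of all genes. The list as a whole was split, with 2 lower and 2 higher at an unadjusted edgeR p under 0.05 (9.29% and 10.1% of all genes). In both lines 8 were below and 7 above 0 (32.2% and 36.9% of all genes). ATF3 (log2 -1.31, SE 0.40) and DDIT4 (log2 -1.09, SE 0.43) were its 2 members lower at that p. The chaperone HSP90AA1 had 1972 against 1304 CPM in the MIR211 line and 1092 against 817 CPM in A375 (log2 0.51, SE 0.09), 1 of 2 called of 14 cytosolic heat shock genes. EEF2, the elongation factor that moves the ribosome along (log2 0.79, SE 0.15), and EIF3A (log2 0.50, SE 0.10) were 2 of 4 translation factors of 33 called higher. In the heat shock and translation factor lists 0 were called lower. Of all genes, DESeq2 called 2.97% higher and 2.00% lower.

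No member was called by DESeq2 among 20 ERK output genes, 15 AU-rich and Pumilio mRNA-binding proteins, 15 inflammatory secreted factors, 15 clock genes, 22 genes of the TGF-beta group, 22 p53 targets, 18 replication-dependent histones, 19 HOX genes, 13 actin and tubulin genes, 14 hypoxia genes or 10 tested melanocyte genes. DESeq2 called 2.00% of all genes lower and 2.97% higher. At an unadjusted edgeR p under 0.05, each of these lists had at most 3 members in either direction. Of all genes, 9.29% were lower and 10.1% higher at that p. The share higher was larger for hypoxia (3 of 14), actin and tubulin (3 of 13) and melanocyte genes (2 of 10), with 0 lower in each. Of the 14 hypoxia genes, 11 were above 0 in both lines and 1 below, against 36.9% and 32.2% of all genes. The medians of all the lists named here lay between -0.13 for the inflammatory factors and 0.29 for actin and tubulin. SOX10, a neural crest and melanocyte transcription factor, had 127 CPM at 1 h against 31.7 CPM at 0 h in the MIR211 line and 181 against 168 CPM in A375 (log2 1.04, SE 0.42). GDF15, a p53 target and stress cytokine, had 1.36 against 1.55 CPM in the MIR211 line and 7.72 against 88.0 CPM in A375 (log2 -2.97, SE 0.94), and it stood at 240 CPM in A375 at 3 h. For both, the change came mostly from 1 line.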
